A study of Arabidopsis thaliana with 28 samples.

Results

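The chromatin response of wild-type Arabidopsis thaliana roots to a short cytokinin treatment was described from 8 ATAC-seq peak lists, 4 from roots treated with 5 µM BA (benzyladenine, a synthetic cytokinin) and 4 from roots given vehicle, both for 45 min in MS liquid medium. They are all the wild-type root ATAC-seq samples of a series of 28 samples and were chosen by tissue, genotype and treatment labels alone. The plants of both groups were Col-0, the wild-type reference strain, with no transgene or mutant allele named, and the series text counts the samples as biological replicates. Plant age is not given in the sources used here. In ATAC-seq a transposase (Tn5) inserts adapters into open DNA. Here it acted on DAPI-stained nuclei of root tissue, sorted by fluorescence with no cell type gate named in the labels. In such bulk samples a difference per nucleus and a difference in the mix of cell types cannot be told apart. The series also holds 4 libraries of arr1,10,12 roots, which carry mutations in the type-B regulator genes ARR1, ARR10 and ARR12, and 4 of wild-type shoots, 2 with BA and 2 control each. These 8 are used only where the wild-type root response is set against them. The 12 RNA-seq samples were not analysed here.

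Cytokinin is a plant hormone that restrains cell division and speeds differentiation in the root tip and takes part in vascular patterning and nutrient signalling. It is bound by histidine kinase receptors (AHK proteins), the signal passes as a phosphate group through phosphotransfer proteins (AHP) to the type-B response regulators (ARR proteins), and these transcription factors switch on target genes in the nucleus. Among the most rapid targets are the type-A response regulator genes, whose products lack a DNA-binding domain and dampen the pathway, and the CKX genes, whose products break cytokinin down.

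Each place in the genome is described by 2 measures, both taken from peak positions. Presence says whether a library has a peak. Covered percent is the share of a stretch of DNA that lies under a peak, given for merged regions and for gene windows, which are a protein-coding gene body with 1 kb on both sides. The lists held 32144 to 36358 peaks per library without any number of reads, so depth is unknown for every library and counting error cannot be estimated. The tissue label fitted the marker lists: windows of 14 root identity genes had a median of 30.4% covered in the root controls and 8.17% in the shoot controls, while 11 photosynthesis genes had 9.01% and 64.5%. Replicate 1 stood apart by its number of peaks, with 36358 in the control and 35228 with BA against 32144 to 32953 in the other 6. Libraries of the same replicate number deviated together from their group means (r of 0.309 to 0.464 across gene windows, against -0.341 to 0.230 for other numbers), so values are also given by replicate pair. Coordinates are those of the TAIR10 build as the peak files give them, left and right mean lower and higher coordinates because the gene table used here carries no strand, and exons are not told from introns.

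Most gene windows were slightly less covered with BA, while a few, led by a cytokinin target gene, were much more covered. The largest mean difference of any window was at ARR7, a type-A response regulator gene, followed by AT1G19040, whose window overlaps that of ARR7. Of 27444 protein-coding windows, 24416 varied among the 8 libraries and were tested by limma on covered percent. None passed a Benjamini-Hochberg adjusted p of 0.05 (0 of 24416, 0%). The smallest adjusted p was 0.127 (limma), or 0.416 with the replicate number as a block. An unadjusted p under 0.05 was found for 1229 windows, 134 higher with BA and 1095 lower. That is about the share that a threshold of 0.05 gives with no effect. With the block, 2554 windows had such a p, more than that threshold gives with no effect, though none passed the adjustment. The median difference over all tested windows was -1.69 percentage points and 79.6% of the windows had the lower mean with BA. When the mean of each library over the tested windows was subtracted, which turned the median difference into 0.41 points, 2 windows passed (0.00819%), ARR7 with an adjusted p of 0.0422 and AT1G19040 with 0.0364 (limma). Without BA replicate 4, the BA library with the least coverage at both, these 2 also passed with no subtraction (limma adjusted p of 0.0235 and 0.0107). Leaving out the lowest BA library raises the difference by construction, so this is no separate support. These 2 windows share a region, and they passed in no other setting run.

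**Figure D1:**
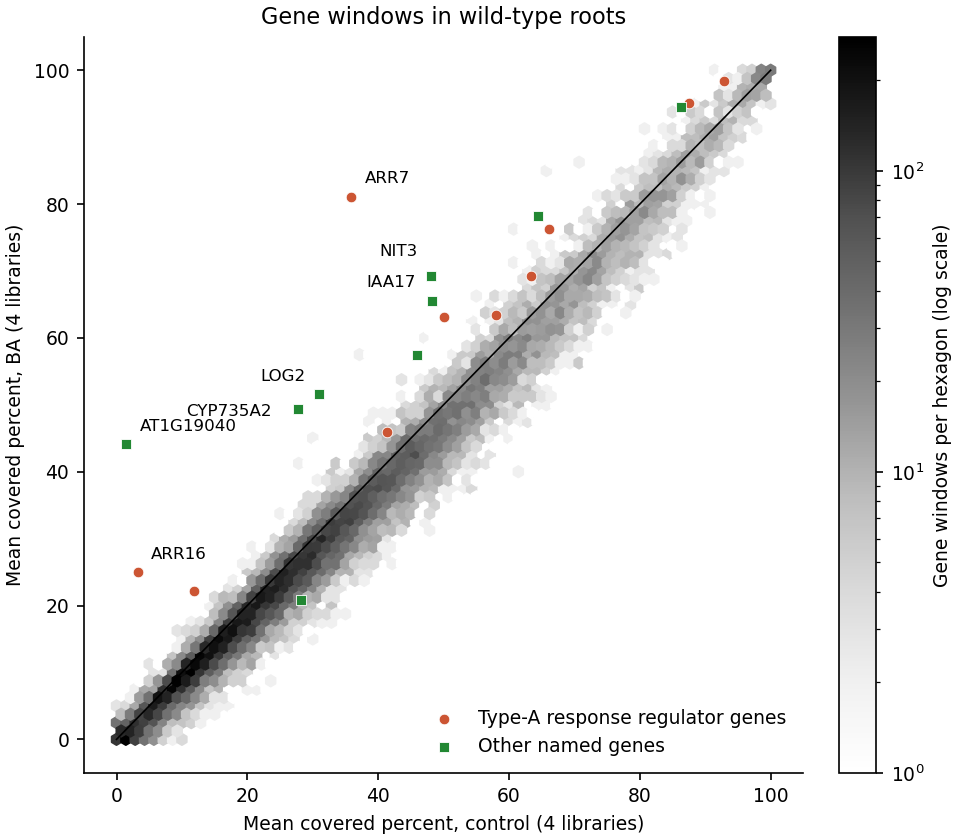
Mean covered percent of gene windows in 4 control (x axis) and 4 BA libraries (y axis) of wild-type roots, with the 24416 tested windows as grey hexagons shaded by number on a log scale. Orange circles are the 10 type-A response regulator genes, green squares 9 other named genes, and the line marks equal values; most hexagons lie just under the line, ARR7 and AT1G19040 far above it.

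ARR7 gave the clearest example. Peaks covered 38.7, 37.05, 36.2 and 31.7% of its window in controls 1 to 4 and 92.6, 81.9, 83.03 and 66.9% in BA libraries 1 to 4, a mean difference of 45.2 points (SE 5.11, limma adjusted p = 0.127). The lowest BA library was far above the highest control. Most of the gain lay left of the middle of the gene, where it made up 38.6 points, against 6.58 points to the right. To the left, a region of 1820 bp (chromosome 1, 6576629 to 6578448), which reaches from the body of ARR7 to its left flank and the neighbour AT1G19040, held a single peak of 200 bp in control 1, no peak in the other 3 controls, and 99.6, 84.1, 86.8 and 56.4% coverage with BA. To the right, controls 2 to 4 had a peak of 1104 to 1295 bp and control 1 the same stretch in 2 peaks, which ended between 6580192 and 6580319. With BA the peak there ended at 6580691 to 6580772 in BA 2 to 4. Beyond the window, every control also had 1 or 2 peaks, of 253 to 1018 bp, between 6580957 and 6581974, and BA 2 to 4 had 1 peak each, of 1131 to 1241 bp, while in BA 1 a single peak spanned both places and ended at 6582067. The right-hand region as merged over all libraries (chromosome 1, 6578897 to 6582067) was 57.3, 67.1, 71.9 and 46.01% covered in controls and 100, 97.7, 92.2 and 90.3% with BA. AT1G19040 itself, for which no role is given here, had 5.99, 0, 0 and 0% in controls and 53.5, 44.8, 47.3 and 30.8% with BA, and these values rest on the left-hand region that the 2 windows share.

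ARR16, another type-A gene, was nearly closed in controls and partly open with BA. Its window was 7.27, 6.03, 0 and 0% covered in controls and 27.4, 30.98, 26.5 and 15.2% with BA, a difference of 21.7 points (SE 3.49, limma adjusted p = 0.636). Controls 3 and 4 had no peak in it, and controls 1 and 2 had a narrow one of 323 and 268 bp. All 4 BA libraries had a wider peak or pair of peaks at that place (chromosome 2, 16969061 to 16970050), with 89.4, 89.1, 88.1 and 68.3% of the region covered. BA 1 to 3 held a second peak near the other end of the gene body (chromosome 2, 16971734 to 16972227), which BA 4 and all controls lacked. The window of AT2G40660 overlaps that of ARR16 and shares the first of these places but not the second. It had 19.2, 15.99, 9.33 and 8.89% in controls and 27.9, 30.03, 29.7 and 26.96% with BA. It also holds a region of its own (chromosome 2, 16965405 to 16966257), with overlapping groups. That region was 79.7, 66.2, 57.0 and 54.3% covered in controls and 66.7, 80.1, 79.4 and 85.5% with BA.

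**Figure D2:**
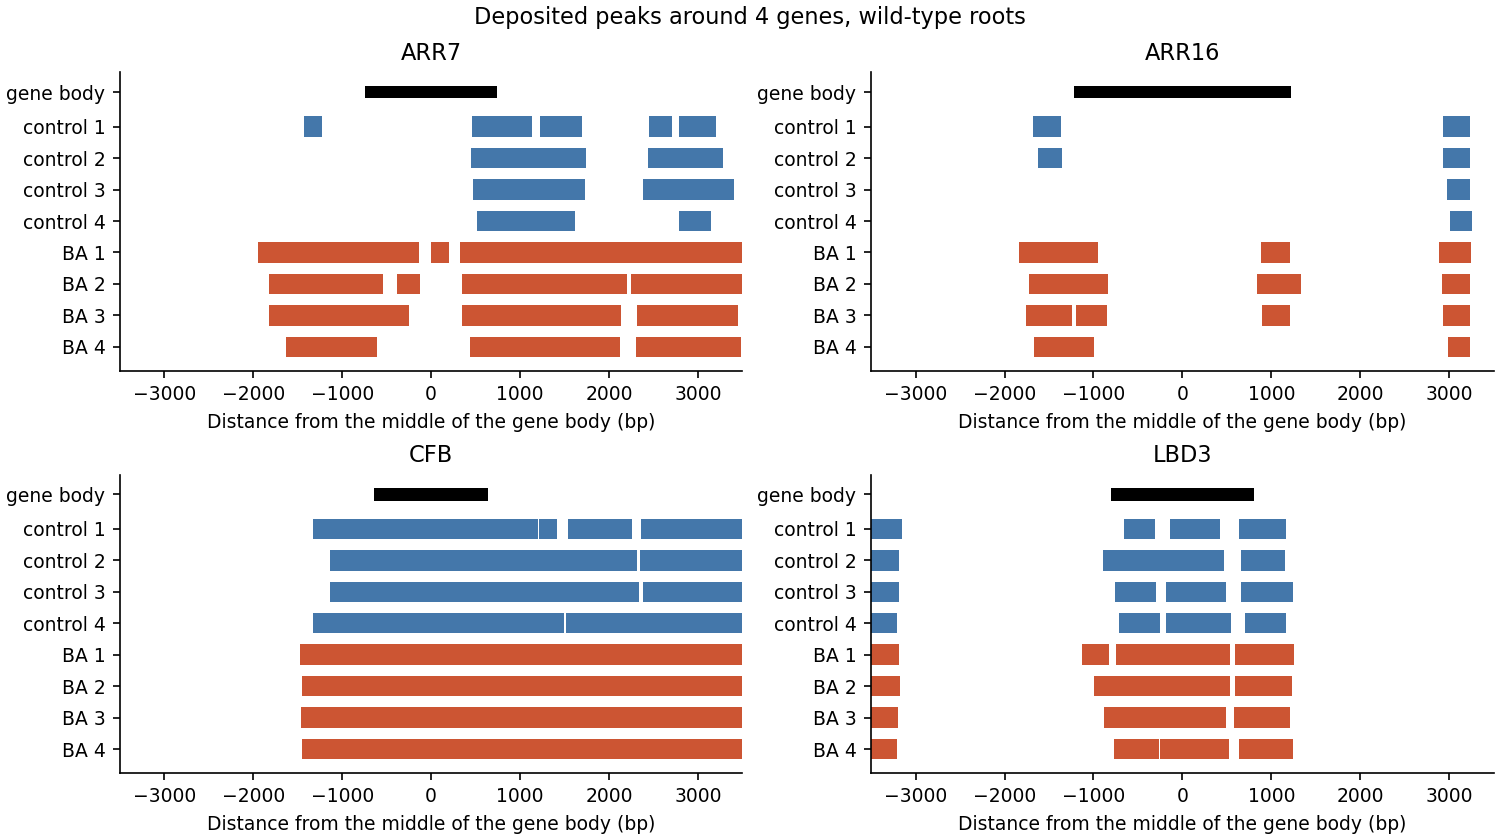
Deposited peaks around ARR7, ARR16, CFB and LBD3 in each of the 8 wild-type root libraries (rows; controls blue, BA orange), with the gene body in black; the x axis is the distance in bp from the middle of the gene body and peaks are clipped at the panel edges. At ARR7 and ARR16 the BA rows hold blocks that are missing or narrower in the control rows; at CFB the BA blocks reach further left and close the gaps that all 4 controls show.

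The other type-A genes were higher with BA in the mean by smaller amounts, and ARR17 was the third whose groups did not overlap. ARR17 had 50.6, 56.03, 45.1 and 48.8% in controls and 60.5, 67.9, 64.9 and 58.9% with BA, a difference of 12.9 points (SE 3.21). ARR6 had 69.6, 73.98, 64.2 and 56.98% and 75.2, 81.8, 75.5 and 72.7%; control 2 lay above BA 4, while every replicate pair was higher with BA. ARR15 varied most within groups, with 18.8, 12.3, 0 and 16.1% in controls and 28.6, 33.3, 15.7 and 11.2% with BA, and its control 3 held no peak. ARR5 and ARR4 were widely open in every library of both groups. ARR5 had 88.6, 93.4, 97.8 and 91.4% in controls and 98.4, 98.2, 97.5 and 99.6% with BA, and ARR4 87.3, 88.2, 89.2 and 85.3% and 92.5, 100, 100 and 87.8%. At ARR4 the peaks belong to a very wide open region of 15325 bp (chromosome 1, 3438026 to 3453350) that spans several neighbours: it was 86.6, 87.9, 89.9 and 81.7% covered in controls and 96.2, 99.7, 97.1 and 91.7% with BA, and its neighbours SNL6, AT1G10455 and GLP7 had windows with no overlap between groups. ARR8, ARR9 and ARR3 differed by 5.90, 5.49 and 4.62 points with overlapping groups. In all, 10 of 10 type-A genes had the higher mean with BA and 3 of 10 had no overlap, against 61 of 24416 windows (0.25%) over all genes that were higher without overlap. Their median difference was 8.85 points against -1.69 over all windows, and no type-A gene passed the adjusted test (limma adjusted p of 0.127 to 0.852). With library means subtracted, ARR6 and ARR8 also lost their overlap, 5 of 10, where 412 windows (1.69%) did so over all genes. This list and the other gene lists were chosen with earlier results of these data known, so such counts are no separate support.

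**Figure D3:**
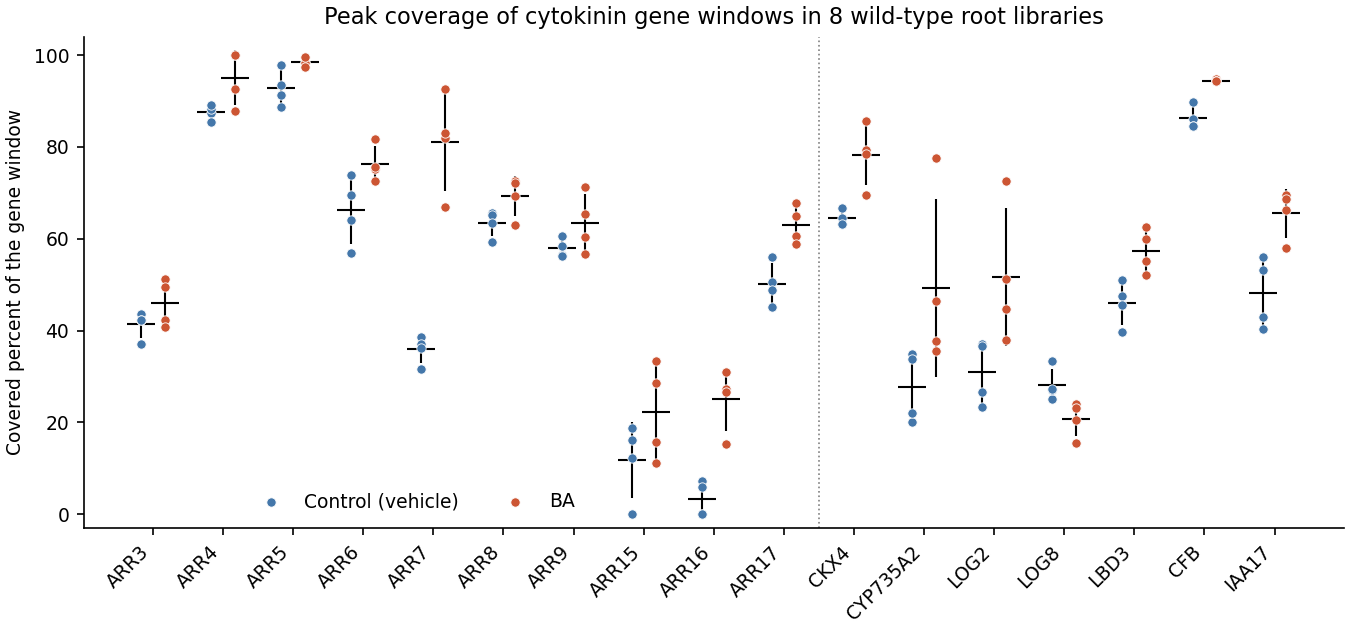
Covered percent of the gene window (y axis) for the 10 type-A response regulator genes, left of the dotted line, and 7 other genes of the cytokinin and auxin lists whose groups do not overlap. Points are single libraries (4 control in blue, 4 BA in orange), black bars the mean and SD; LOG8 is the 1 gene shown with the lower values under BA.

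The genes upstream of these targets were mixed in direction. Of 9 receptor and phosphotransfer genes, 5 had the higher and 4 the lower mean with BA, and the median difference was 0.229 points. None was without overlap, against 0.25% of all tested windows on the higher side and 2.87% on the lower. The receptor gene AHK4 had 32.2, 40.3, 44.2 and 43.7% in controls and 42.5, 44.3, 45.5 and 45.0% with BA, higher in 4 of 4 pairs, and the phosphotransfer gene AHP4 had 25.4, 31.5, 24.6 and 27.7% and 22.2, 28.7, 18.2 and 20.2%, lower in 4 of 4 pairs. Of 8 type-B genes, 7 varied, 2 had the higher and 5 the lower mean, and the median was -1.06 points, or 1.04 with library means subtracted. ARR1 had 72.5, 63.6, 51.2 and 54.7% in controls and 49.4, 57.96, 56.1 and 50.2% with BA, and ARR2 37.2, 17.8, 15.1 and 22.6% and 17.6, 11.5, 23.3 and 22.5%. For both, control 1 was the highest of all 8 libraries.

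Genes that set the level of the hormone had means on both sides. CKX4, a cytokinin oxidase gene, had 63.3, 64.5, 63.3 and 66.7% of its window covered in controls and 69.6, 85.6, 79.3 and 78.5% with BA, a difference of 13.8 points (SE 3.41, limma adjusted p = 0.852). A region of 4202 bp there (chromosome 4, 14565697 to 14569898) was covered 78.3, 75.6, 74.1 and 79.2% in controls and 82.2, 97.8, 94.6 and 91.1% with BA. CKX5, of the same family and, like CKX6, named after its values were seen, had 67.6, 60.4, 50.6 and 53.7% and 76.1, 81.01, 73.9 and 60.1%, a larger mean difference of 14.7 points (SE 5.39), but controls 1 and 2 were above BA 4. CKX4 was the 1 of 10 genes of degradation and conjugation without overlap, against 0.25% of all tested windows on the higher side; with library means subtracted CKX6 was a further one, against 1.69%. The median of the 10 was 1.16 points. CYP735A2 encodes the hydroxylase that makes trans-zeatin forms. Its window had 20.04, 34.98, 33.8 and 22.01% in controls and 77.5, 35.6, 46.4 and 37.7% with BA; BA 1 was far above the rest, and BA 2 exceeded control 2 by less than 1 point. A region there (chromosome 1, 25061437 to 25063408) was wider in every BA library, 58.7, 66.4, 67.04 and 64.5% covered in controls and 99.4, 86.0, 85.9 and 81.8% with BA, where the peak began further left. LOG genes encode the enzymes that release active cytokinin. LOG2 had 37.1, 36.6, 26.7 and 23.3% in controls and 44.6, 72.6, 51.2 and 37.95% with BA, while LOG8 had 25.02, 33.3, 27.2 and 27.2% and 24.01, 23.2, 15.5 and 20.6%, the only lower member without overlap in any list, and it overlapped once library means were subtracted. Of 13 synthesis and activation genes, 2 were higher and 1 lower without overlap (0.25% and 2.87% of all tested windows), 9 had the lower mean (79.6% of all), and the median was -2.86 points.

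Of 13 cytokinin response factor and other early response genes, LBD3 and CFB were higher without overlap, against 0.25% of all tested windows, or 1.69% with library means subtracted, where they were again 2. This list too was chosen with earlier results of these data known, so the count is no separate support. LBD3 belongs to the LOB-domain transcription factors. It had 39.7, 51.1, 47.6 and 45.6% in controls and 62.6, 59.8, 55.3 and 52.1% with BA, a difference of 11.4 points (SE 3.38), and a short region within it (chromosome 1, 5652659 to 5653335) had 76.96, 72.1, 86.3 and 69.3% and 98.97, 94.2, 92.8 and 88.6%. CFB, a cytokinin-induced F-box gene, was widely open in controls too, with 86.1, 84.5, 84.7 and 89.7%, and its 4 BA libraries were nearly the same, with 94.8, 94.3, 94.4 and 94.3%. The list as a whole had 6 higher and 7 lower means and a median of -0.134 points, or 1.97 with library means subtracted. In the list of 16 auxin genes, IAA17, a repressor of auxin response, was the 1 member without overlap, against 0.25% of all tested windows on the higher side. It had 40.4, 56.1, 42.9 and 53.2% in controls and 69.5, 66.2, 68.6 and 57.9% with BA. Of the 16, 12 had the lower mean, as did 79.6% of all tested windows. The median of the list was -1.71 points, or 0.393 with library means subtracted.

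In the lists from outside the pathway most members tested had the lower mean, as did most windows. Of 16 nutrient uptake genes, 14 had the lower mean with BA, with a median of -3.996 points, and of 14 root identity genes 13 did, with a median of -3.16 points, against -1.69 over all windows. No member of either list was without overlap, against 2.87% of all tested windows on the lower side and 0.25% on the higher. CASP1, which guides the Casparian strip of the endodermis, had 62.9, 71.1, 42.2 and 71.4% in controls and 44.4, 44.6, 39.4 and 31.6% with BA, lower in 4 of 4 pairs, with control 3 below BA 1 and BA 2. The nitrate transporter gene NRT1.1 had 69.4, 70.6, 33.4 and 40.96% and 40.96, 39.03, 34.4 and 34.8%; only controls 1 and 2 were above the BA range. The phosphate transporter gene PHT1;4 had 57.7, 45.4, 40.7 and 38.5% and 35.3, 39.5, 28.2 and 37.9%, and SHR, a regulator of radial patterning, 45.4, 68.5, 60.96 and 36.4% and 44.2, 40.8, 40.1 and 36.2%. These values overlap, and with library means subtracted the medians were -1.90 points for nutrient uptake and -1.06 for root identity. The 8 photosynthesis genes that varied had a median of -0.614 points and 6 broadly used genes -1.39, which became 1.49 and 0.713 points with library means subtracted, again with no member apart. LHCB1.1 encodes a light-harvesting protein. It had 24.4, 7.57, 7.60 and 6.04% in controls and 7.57, 0, 7.60 and 6.04% with BA. LHCA1, of the same kind, had 64.3, 49.4, 45.96 and 40.6% and 44.3, 48.8, 69.4 and 49.7%. The actin gene ACT2 had 100, 95.04, 76.2 and 78.2% and 90.5, 85.9, 93.9 and 87.6%, and UBC21 82.7, 76.4, 84.2 and 71.7% and 72.1, 64.4, 87.4 and 74.6%. The groups of all 4 overlapped.

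Outside the lists, the windows with the smallest unadjusted p on the higher side, none of which passed, were AT4G11190, AT5G51790 with its overlapping neighbour AT5G51795, the nitrilase gene NIT3, AT5G47980 and the cytochrome P450 gene CYP82F1, beside the type-A loci. NIT3 had 53.9, 46.4, 40.98 and 51.3% in controls and 68.4, 66.3, 75.5 and 66.9% with BA, a difference of 21.1 points (SE 3.58, limma adjusted p = 0.636). AT4G11190 had 60.5, 59.7, 49.9 and 52.3% and 72.7, 75.1, 76.03 and 72.8%, and AT5G51790 46.8, 46.8, 49.1 and 40.6% and 65.5, 64.4, 71.6 and 59.6%. In each of these 3 the lowest BA library was at least 10 points above the highest control. AT5G51795, AT5G47980 and CYP82F1 differed by 18.9, 8.76 and 17.6 points, also without overlap.

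On the lower side the differences with the smallest p were smaller in points and came from windows with little spread. The window of the A-type cyclin gene CYCA3;3 had 9.23, 5.68, 9.31 and 11.7% in controls and no peak in any BA library. CYCA3;4, its neighbour with an overlapping window, had 28.3, 24.1, 28.2 and 24.3% and 17.7, 10.9, 12.7 and 17.1%. AT2G24970 had 13.5, 13.2, 13.6 and 16.6% in controls and 5.30% in all 4 BA libraries (limma adjusted p = 0.127). Each BA library held a single peak of exactly 200 bp there, a width shared by 10.2 to 12.4% of the peaks in BA libraries. The equal BA values follow from this common width. AT5G52670 had 20.5, 16.6, 16.5 and 18.1% in controls and 7.96, 7.72, 8.23 and 6.31% with BA (limma adjusted p = 0.127). The others were AT5G28160, AT2G27710, AT2G39975, AT2G27060, AT4G35610 and BEH2, a homologue of the brassinosteroid regulators BES1 and BZR1. Their differences lay between -9.97 and -15.98 points, lower in 4 of 4 pairs each. BEH2 had 73.9, 74.6, 69.3 and 65.8% in controls and 53.02, 59.04, 56.4 and 54.3% with BA, with all controls above all BA libraries.

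Counted over the genome, small differences were mostly lower with BA and the largest ones mostly higher. By at least 5 points, 477 windows were higher and 3926 lower, and by at least 10 points 125 and 635. By at least 20 points the balance turned, with 23 higher and 13 lower, and by at least 30 points there were 3 higher and 0 lower. These are windows and not separate loci: ARR7 and AT1G19040, both past 30 points, share the left-hand region. Among the 23 were ARR7, AT1G19040, ARR16, CYP735A2, LOG2 and NIT3, and among the 13 was CASP1. Without BA replicate 1 the difference at CYP735A2 was 12.2 points, and without BA replicate 2 that at LOG2 was 13.6. Of the 23, 22 were higher in 4 of 4 replicate pairs, and of the 13, 12 were lower in 4 of 4. Without overlap between groups, 61 windows were higher (0.25%) and 700 lower (2.87%). With library means subtracted these became 412 (1.69%) and 159 (0.651%), so the split between the directions depends on the general difference between libraries. A random split of 8 different values into 4 and 4 leaves no overlap with a probability of 0.0286, both directions together. The shares above, taken over both directions, were close to that rate, so a lack of overlap alone does not mark a response.

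The 61 higher windows fell into 52 separate loci, of which 4 lay at type-A genes (ARR7, ARR16, ARR17 and the neighbours of ARR4). Of the 61, 48 (78.7%) held a region from the authors' deposited list of 760 regions that differ between BA and control in roots. Of the 700 lower windows, 18 (2.57%) did, and of all tested windows 2.42%. The authors' list was made from these same libraries and gives no direction, so this compares 2 readings of the same samples. Taken from the other end, of the 590 tested windows that hold such a region, 8.14% were higher without overlap and 3.05% lower.

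The arr1,10,12 roots and the shoots are separate libraries, and they were read at the same windows. At ARR7, arr1,10,12 roots had 26.1 and 23.98% in controls and 31.2 and 28.5% with BA, and shoots had 70.6 and 51.01% and 100 and 95.7%. At AT1G19040 and ARR16 no arr1,10,12 library, with or without BA, had a peak, while shoots had 34.5 and 16.9% in controls and 74.3 and 77.2% with BA at the first and 15.4 and 13.4% and 20.5 and 26.5% at the second. CKX4 had 59.0 and 63.3% and 44.4 and 63.8% in arr1,10,12 roots and 49.4 and 45.6% and 75.2 and 82.8% in shoots. CYP735A2 and AT5G47980 had no peak in any shoot library. For CFB the arr1,10,12 roots had 83.9 and 91.1% in controls and 94.4 and 93.1% with BA, a mean difference of 6.26 points against 8.21 in the wild type. In 1 model of 12 root libraries, the difference of the BA effect between wild type and arr1,10,12 was 42.6 points at AT1G19040 (SE 6.86), 40.4 at ARR7 (SE 7.91) and 21.7 at ARR16 (SE 5.36). None of 24491 windows passed for this difference (0%; limma, smallest adjusted p = 1), with 2 mutant libraries per treatment. An unadjusted p under 0.05 was found for 329, fewer than that threshold gives with no effect. Without BA replicate 4, whose low coverage at AT1G19040 makes the difference larger once it is left out, that window passed (limma adjusted p = 0.0103). Without control replicate 1 of the mutant 7 other windows did, and without its control replicate 2 another 3, each a fit with a single mutant control whose spread is taken from the other groups.

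Against shoots, none of 24908 windows passed for a different BA effect (0%; limma, smallest adjusted p = 0.0939). An unadjusted p under 0.05 was found for 872, fewer than that threshold gives with no effect. Over the 61 higher windows, the median of BA minus control was 0.771 points in arr1,10,12 roots, where 36 of the 58 that differed (62.1%) were higher, and 3.11 points in shoots, where 38 of 51 (74.5%) were. Over all tested windows the medians were -1.25 and 0.490 points, and 28.1% and 61.9% of those that differed were higher. The 700 lower windows had 25.4% higher in arr1,10,12 roots and 58.6% in shoots.

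**Figure D4:**
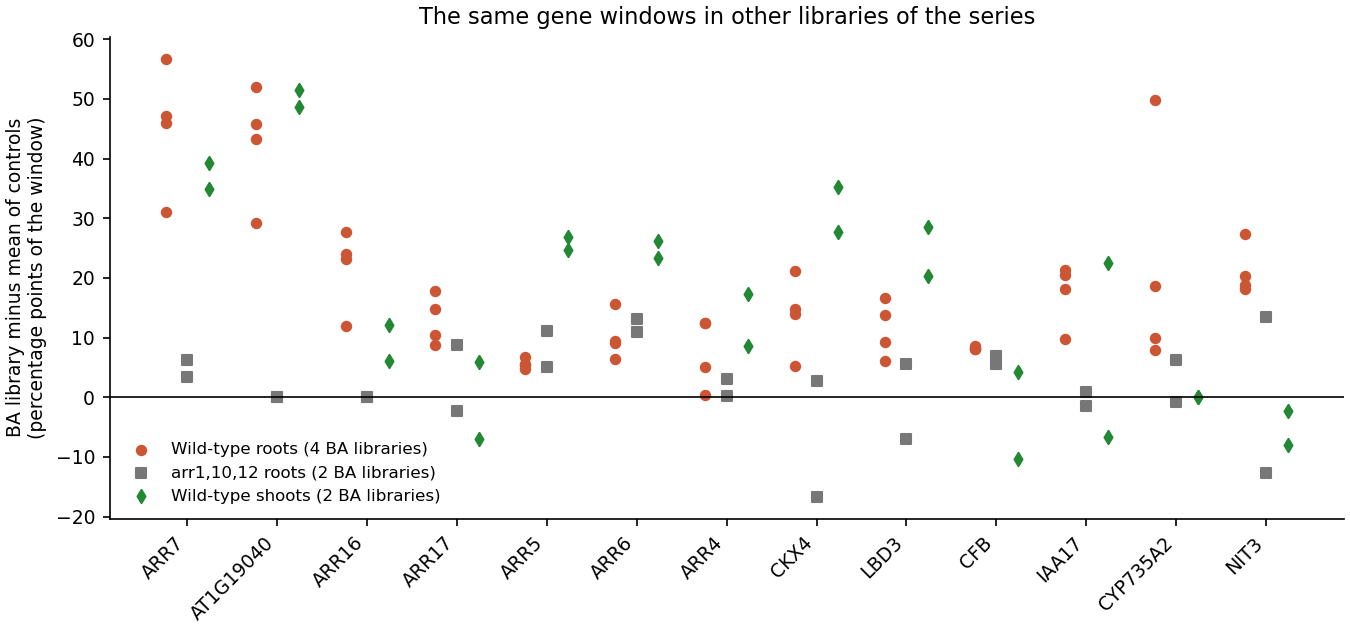
Covered percent of each BA library minus the mean of the controls of its own tissue and genotype (y axis, percentage points of the gene window) for 13 genes. Orange circles are 4 wild-type root libraries, grey squares 2 arr1,10,12 root libraries and green diamonds 2 wild-type shoot libraries; at ARR7, AT1G19040 and ARR16 the wild-type values lie above the arr1,10,12 values, which at AT1G19040 and ARR16 are 0.

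Merged over the 8 libraries, peaks gave 30562 regions found in 2 libraries or more, of which 21614 were found in all 8. Of 30559 regions whose covered percent varied, none passed limma (0%; smallest adjusted p = 0.495), and 103 were higher (0.337%) and 734 lower (2.4%) without overlap. An unadjusted p under 0.05 was found for 1831, slightly more than that threshold gives with no effect. Of the 10 regions per direction with the smallest unadjusted p, those on the higher side included the right-hand region of ARR7 and a region near IAA3, an auxin repressor gene (chromosome 1, 1129206 to 1135017), with 65.9, 86.4, 72.8 and 68.6% in controls and 99.6, 98.1, 98.5 and 89.2% with BA. A region more than 5 kb from AT2G20080 (chromosome 2, 8670032 to 8670978) had 53.5, 33.9, 50.8 and 32.1% and 79.1, 99.7, 94.1 and 94.6%, and one within 1 kb of AT5G47980 (chromosome 5, 19426966 to 19429138) 60.9, 59.2, 36.8 and 60.1% and 88.5, 99.9, 91.8 and 97.6%. The groups of these 3 regions did not overlap. Others lay near KCO3, a potassium channel gene, in AT2G07702 and near APT3, AT3G48510, AT5G39770 and AT1G67190. The region in AT2G07702 had the smallest unadjusted p on this side. Its groups overlapped, with 97.6, 0, 0 and 97.6% in controls and 97.6% in every BA library, which left no spread with BA. The groups also overlapped at AT5G39770. On the lower side, a region near the RING finger gene ATL4 (chromosome 3, 22257818 to 22258087) had a peak in all 4 controls, 97.8, 92.6, 99.6 and 99.3% covered, and in BA 2 alone, and one near AT4G13030 (chromosome 4, 7610494 to 7610806) in all 4 controls and in BA 1 alone. A region in the body of AT2G21780 (chromosome 2, 9290257 to 9291267) had 99.1, 98.7, 99.1 and 99.8% in controls and 79.3, 93.7, 82.99 and 85.8% with BA. The remaining 7 lay at AT2G28200, AT5G56790, AT1G72730, AT1G75590, VPS2.2, AT1G71000 and FAF1. Of these, only the regions at AT5G56790 and AT1G75590 had groups without overlap.

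Complete gain or loss of a region was rare. Of 8948 regions with a peak in 2 to 7 libraries, 8 had one in all 4 BA libraries and no control (0.0894%) and 18 the reverse (0.201%). By Fisher's exact test none passed the adjustment (smallest adjusted p = 1) and these 26 had an unadjusted p under 0.05, the smallest p that 4 against 4 libraries can give being 0.0286. Only regions with a peak in exactly 4 libraries can be divided in this way, so most of the 8948 could not be. Of those that could, 674 had the peak in 2 BA and 2 control libraries. A further 122 had it in 3 BA and 1 control, and 391 in 1 BA and 3 control. Whether the counts of 8 and 18 are high or low for such regions was not tested. Over all regions 4458 had a peak in fewer BA than control libraries and 1712 in more. The 8 regions held with BA alone were 283 to 624 bp wide and lay at or near AT1G77660, CYP82F1, PBP1, AT3G50300, AT4G22620, YUC8, BR6OX1 and THAS1. The one in CYP82F1 (chromosome 2, 10709151 to 10709556) was 80.5, 86.7, 99.8 and 62.8% covered in the BA libraries. That nearest YUC8, an auxin synthesis gene (chromosome 4, 14187615 to 14188046), lay more than 4 kb away and had 72.9, 100, 82.9 and 60.4%, and that nearest BR6OX1, a brassinosteroid oxidase gene (chromosome 5, 15599143 to 15599654), had 98.8, 97.9, 39.1 and 59.6%. A region in THAS1, which encodes the enzyme that makes the root triterpene thalianol (chromosome 5, 19457872 to 19458495), had 50.3, 78.04, 64.1 and 53.2%. None of the 26 overlapped a region of the authors' list.

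The 18 regions held in controls alone were 212 to 610 bp wide, and the 10 widest lay at or near AT2G27060, MYB61, AT3G22845, CYCA3;4, AT2G41451, AT4G30350, AT5G52670, FBS2, 5-FCL and BOB1. The one near CYCA3;4 (chromosome 1, 17305661 to 17306119) was 70.8, 43.6, 71.5 and 89.8% covered in controls and is the peak behind the empty BA windows of CYCA3;3. Others lay near MYB61, a transcription factor gene (chromosome 1, 3087977 to 3088506, 37.7, 48.3, 75.5 and 54.2%), in 5-FCL (chromosome 5, 4138502 to 4138850, 73.9, 87.1, 73.6 and 57.3%), a folate metabolism gene, and in BOB1, which encodes a NudC domain chaperone (chromosome 5, 21663551 to 21663892, 88.3, 73.4, 58.5 and 93.6%). Each of the 4 had no peak in any BA library of wild-type roots. With the gene body alone as the window, 5-FCL was the 1 gene that passed (-10.5 points, limma adjusted p = 0.0104). In the arr1,10,12 roots and shoots, the 2 sets differed in how often they held a peak: of the 18, 8 had one in arr1,10,12 controls, 7 in arr1,10,12 with BA, 9 in shoot controls and 9 in shoots with BA, and of the 8 regions held with BA alone 1, 1, 0 and 1. For example, the region in BOB1 was on average 100% covered in shoot controls and had no peak in arr1,10,12 roots, while those near MYB61 and FBS2 had no peak in any of these 8 libraries. That difference between the sets was not tested. In limma without a variance trend and without the robust setting, 7 regions were higher (0.0229%) and 13 lower (0.0425%) with an adjusted p under 0.05. Of these 20, 18 are among the 26 and have no spread in at least 1 group, so they restate presence and are no separate support. One of the other 2 is the left-hand region of ARR7 (adjusted p = 0.0489).

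Covered length, number of peaks, median peak width and number of wide peaks were each lower with BA in 4 of 4 pairs. Among them, only median width and wide peaks had groups without overlap. Covered length was 28.7, 27.97, 26.5 and 25.7 Mb in controls 1 to 4 and 26.98, 25.9, 24.1 and 25.1 Mb with BA. The mean difference was -1.71 Mb. It was -1.12 Mb in regions with a peak in all 8 libraries and -0.438 Mb in the other merged regions. Peaks of 1000 bp or more numbered 8217, 8036, 7955 and 7708 in controls and 7488, 7154, 6640 and 7304 with BA, with no overlap between the groups. Their mean was 7979 ± 211 in controls and 7146 ± 364 with BA (SD, n = 4 each; two-sided exact permutation p = 0.0286, which is the lowest that 70 splits allow; adjusted over 21 library values it is 0.2). In the 21614 regions shared by all 8 libraries, the first peak began 89.2 ± 17.3 bp inside the left end in controls and 112 ± 14.2 bp with BA (SD, n = 4 each, exact permutation p = 0.114). The right end gave 87.5 and 109.8 bp (exact permutation p = 0.0857), and gaps inside a region 38.5 and 45.4 bp (exact permutation p = 0.314). Each of these values differed in the same direction in 4 of 4 pairs, for which the exact p within pairs is 0.125, the smallest possible. The difference in means was about as large at both ends.

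By pair, DNA was both gained and lost with BA, and loss was larger in each. From the control to the BA library, pair 1 gained 1.49 Mb and lost 2.84 Mb, pair 2 gained 0.785 and lost 2.74 Mb, pair 3 gained 1.06 and lost 3.39 Mb, and pair 4 gained 1.60 and lost 2.19 Mb. In whole regions, pair 1 was almost even, with 1413 gained and 1427 lost, while pair 3 gained 978 and lost 2939. Mean covered percent of regions was lower with BA by about the same amount in gene bodies (68.5% in controls, 61.5% with BA), within 1 kb of a gene (75.5% and 68.5%) and farther away (69.3% and 62.5%), with exact permutation p of 0.143 to 0.286. The first 2 classes were lower in 4 of 4 pairs and the third in 3 of 4, with 66.2% in control 1 and 73.01% in BA 1.

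**Figure D5:**
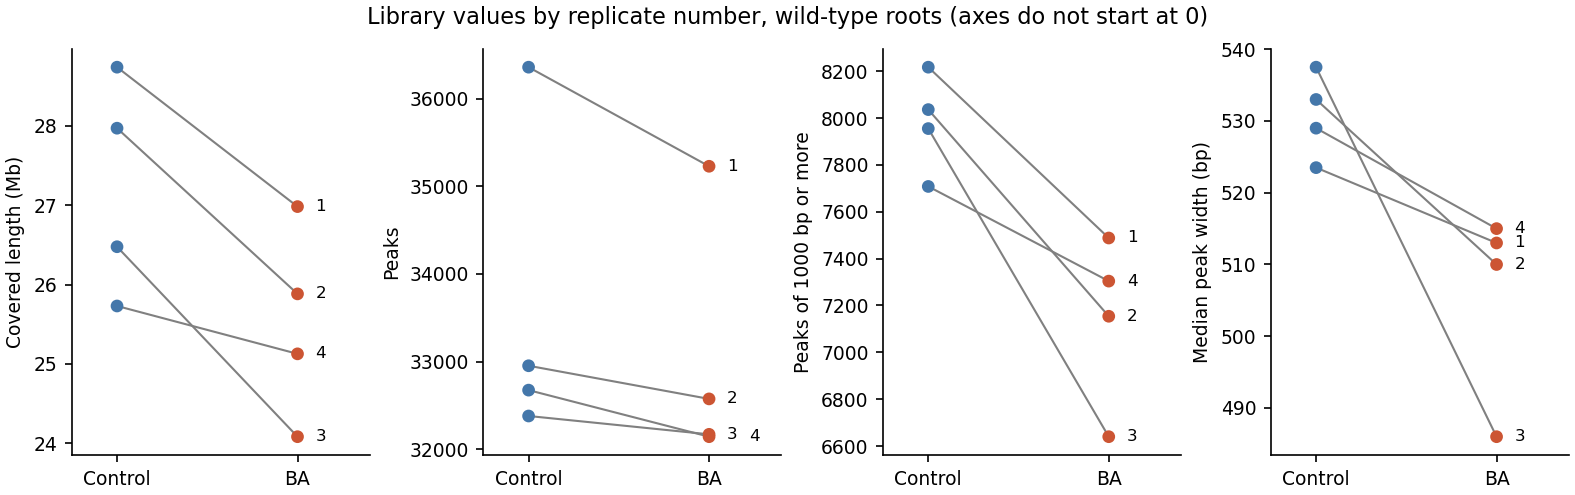
Covered length in Mb, number of peaks, number of peaks of 1000 bp or more, and median peak width in bp (y axes, which do not start at 0) for the control and BA library of each replicate number, joined by lines. Every line is lower at BA than at control, and for wide peaks and median width the 2 groups do not overlap.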

How the data were processed

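ATAC-seq peak lists of 16 samples were used, 1 per library, together with the authors' deposited list of 760 root regions that differ between BA and control. Per the submitters' processing notes, the authors used HOMER 4.9.2, deepTools 2.5.2, SAMtools 1.5 and Bowtie 1.2.0, and the build was TAIR10; the role and settings of each tool are not given in the sources used here. The deposited lists hold chromosome, start and end, with no score, fold, direction or read number. Depth is therefore unknown, and so is the precision it gives.

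Samples were grouped by the titles in the labels. Overlapping peaks of the 8 wild-type root libraries (1 bp or more, 5 nuclear chromosomes) were merged, and regions with a peak in 2 or more libraries were kept. The covered percent was computed for regions and for protein-coding genes with 1 kb on both sides, with gene positions from a RefSeq table of TAIR10.1 whose coordinates are not printed. BA and control were compared by limma 3.58.1 (R 4.3.3; trend and robust variance, Benjamini-Hochberg over all windows or regions that vary, threshold 0.05, two-sided), presence by Fisher's exact test, and library values by exact permutation over 70 splits with SciPy 1.17.1. The fit was also run on simulated independent normal values with known differences added. These lacked the bounds, the zeros and the pairing of the real values, so the run does not show how the fit behaves on them. Replicate numbers come from the titles. As same-numbered libraries deviated together in all 4 pairs, they were read as pairs, and a fit with the number as a block was also made. The SE and limma p of single windows and regions come from the fit without the block, unless stated otherwise.

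The members and the 11 gene lists (126 genes, all found) were chosen with earlier results of these data known. Named genes are list members without overlap or else the 2 with the largest difference, all type-A genes, and, as fewer than 5 windows or regions passed per direction, the 10 with the smallest unadjusted p in each direction. Of regions held in 1 group alone the 10 widest per direction are named. Genes in wide loci were named after their values were seen. Alternatives covered the window, merging, peak filters, scale, subtraction of library means, the block and leaving out each library. No genome sequence was used.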

Additional observations from a re-analysis of the deposited data

Results flagged for a closer look

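In 12 of 176 groups of 4 libraries, 1 library lay farther from the others than Dixon's 95% critical value allows; chance gives about 1 in 20. Replicate 1 had the most peaks on both sides, 36358 in control 1 against 32380 to 32953 in the other controls, and 35228 in BA 1 against 32144 to 32575. Peaks of exactly 200 bp made up 8.94% of control 2 and 10.8% to 11.1% of the other controls. Among gene windows, AT1G19040 was 5.99% covered in control 1 and 0 in the others. AT2G24970 was 16.6% covered in control 4 against 13.2% to 13.6%, and LHCB1.1 24.4% in control 1 against 6.04% to 7.60%. Among regions, that near AT5G47980 was 36.8% covered in control 3 against 59.2% to 60.9%. The region near IAA3 was 89.2% covered in BA 4 against 98.1% to 99.6%, and that near AT3G48510 81.9% in BA 3 against 95.4% to 97.3%. The region near ATL4 was 74.1% covered in BA 2 and had no peak in the other BA libraries. The region near AT4G13030 was 89.5% covered in control 4 against 97.4% to 98.7%, and 79.9% in BA 1 with no peak in the other BA libraries.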

How the results depend on the processing

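The count of gene windows past the threshold, 0, stayed at 0 with the replicate block, the arcsine square root, 2 kb flanks, no variance trend or robust setting, and only windows with a mean of 10% or more. It was 2 with library means subtracted, 1 with the gene body alone, and 0 to 2 without any 1 library. The replicate block changed no call for windows, regions or the difference from arr1,10,12, with 2554 windows at an unadjusted p under 0.05 against 1229. Regions past the threshold numbered 20 without a variance trend and robust setting, and 0 under every other setting run. The 26 regions separated by presence became 46 when a peak had to cover 50% of the region, 29 without peaks under 300 bp, 19 with peaks within 100 bp merged, and 41 to 84 without any 1 library, where fewer libraries have to differ. Windows that differed from arr1,10,12 in the effect of BA numbered 0 to 7 without any 1 library. By settings chosen after seeing the data, the 61 higher windows without overlap became 412 and the 700 lower ones 159 with library means subtracted. With the gene body alone they were 62 and 464, and without any 1 library 84 to 267 and 916 to 1735, where again fewer libraries have to differ; the highest counts came without control replicate 1 and without BA replicate 1. The mean covered percent over all gene windows differed by -1.87 points (exact permutation p = 0.171; with the replicate block, exact p = 0.125, the smallest possible), by -1.92 without peaks under 300 bp, and by -2.48 to -1.07 without any 1 library. Of 779 values of 67 single genes and regions under these alternatives, 767 kept direction and call, 4 newly passed (ARR7 and AT1G19040, as reported) and 8 reversed, none of them at a gene without overlap except AT4G35610, at 0.271 points with the gene body alone. The others were ARR2 without control replicate 1 (0.242; -7.11 to 0.242 without any 1 library), LHCA1 with the gene body alone (-0.149), without control replicate 4 (-0.182) and without BA replicate 3 (-2.47; range -2.47 to 7.73), and ACT2 on the arcsine scale (-0.0219), without control replicate 3 (-1.61; range -1.61 to 6.32) and without control replicate 4 (-0.929). The cause was not tested. Peak lists set the limit: a peak either passes the authors' caller or is missing, so signal below it is not seen, and the files give no depth to say how much lies there.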
